A study of Hordeum vulgare with 6 samples.

Results

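The membrane lipid remodelling genes of barley shoots comprised 4 genes, taken by their identifiers from a table of 39841 listed genes. They were HORVU3Hr1G079900 (GDPD1), HORVU4Hr1G044140 (MGD2), HORVU3Hr1G017440 (a diacylglycerol lipase) and HORVU3Hr1G010540 (SQD2-like). All 4 were found in the table, and all had a level above 0. The names are those the study gives to these identifiers, since the table itself pairs no nuclear identifier with a name. Shoots of the barley line Rolap were cut on day 23 from plants that shared a low-phosphate soil with 8 mg of phosphorus per kg, under 16 h of light at 22 °C. The low-Pi group (3 libraries) had no phosphate added, and the control group (3 libraries) received 60 mg of phosphorus per kg as KH2PO4. Pi stands for inorganic phosphate. A replicate was 1 pot with 3 plants, so each library reads the pooled shoots of a pot.

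Phospholipids hold much of the phosphate of a plant cell. When phosphate runs short, plants can break phospholipids down, recover the phosphate of their head groups, and fill the membrane with lipids that carry sugar instead, namely galactolipids and sulfolipids. The names of the 4 genes point to different enzymes of lipid metabolism. Whether each gene takes part in this exchange in barley, the lipase gene above all, was not tested. GDPD1 belongs to the glycerophosphodiester phosphodiesterases, which split deacylated phospholipids into glycerol-3-phosphate and the free head group. Diacylglycerol lipases of the sn1-specific type, known best from animals, cut a fatty acid from diacylglycerol, the backbone that both new lipid classes are built on. MGD2 is a monogalactosyldiacylglycerol synthase, an enzyme that puts galactose on diacylglycerol. SQD2, characterised in Arabidopsis, joins the sulfur-bearing sugar sulfoquinovose to diacylglycerol in the last step of sulfolipid synthesis.

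The upstream sequences carry what can be read of control elements near these genes. The study lists an upstream sequence of 2000 bases for each gene on its list of genes called changed between low-Pi and control. The first 399 bases, those farthest from the gene, were at hand for 96 genes. That gene list is longer, and its other genes were not analysed here. The motif ATGCCAT, called the P-responsive PHO element, was searched on both strands. It was present in the stretches of GDPD1 and SQD2-like and in neither of the other members, so 2 of 4 members held it. Among all 93 stretches with readable bases, 9 held it, or 9.68% (exact Clopper-Pearson 95% interval 4.52 to 17.6%). These stretches come from the study's list and include those of the members, so the share is no background of ordinary genes. A match to the motif is a description of letters and was not tested as a site. The 200 bases around each match are given here, as these stretches are what the count rests on. The motif is in capitals, and the strand printed is that of the gene.
GDPD1: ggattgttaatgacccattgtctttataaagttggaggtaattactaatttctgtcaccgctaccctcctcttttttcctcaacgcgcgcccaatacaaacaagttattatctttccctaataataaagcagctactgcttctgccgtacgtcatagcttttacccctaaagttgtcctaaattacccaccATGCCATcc
SQD2-like: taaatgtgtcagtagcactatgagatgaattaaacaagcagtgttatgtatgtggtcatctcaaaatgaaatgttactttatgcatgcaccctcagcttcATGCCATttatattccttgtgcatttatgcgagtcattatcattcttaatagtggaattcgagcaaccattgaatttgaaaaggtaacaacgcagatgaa

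If the last upstream base is the base before the annotated gene, the GDPD1 run covers chr3H:585697988-585698187 of IBSC_v2 on the plus strand, and its motif ends 1604 bases before the gene. The SQD2-like run covers chr3H:23193549-23193748 on the minus strand, and its motif ends 1775 bases before the gene. No genome of this build was used here, so the placement follows from the listed gene ends and was not checked against sequence. On that placement the GDPD1 motif lay in no other listed gene. The SQD2-like motif lay inside the annotated span of HORVU3Hr1G010550, the next gene upstream on the same strand. That gene covered 1091 of the 2000 upstream bases of SQD2-like, or 54.5%. No other member's upstream sequence ran into a listed gene.

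The second motif searched was GNATATNC, the PHR1 binding sequence (P1BS), which reads the same on both strands and is bound by transcription factors of the phosphate starvation response. In the 399 bases at hand it was in 9 of 93 stretches, or 9.68% (same interval), and in those of 0 of 4 members. That count covers only the part farthest from each gene. The study searched the whole upstream sequences, and its matches in the 1601 bases nearer to the genes are not given here, so the members cannot be described as with or without this element. The stretches also differed in base composition. GDPD1 had 32.6% G and C and SQD2-like 40.6%, below the median of 44.1% over 92 stretches with at least 100 known bases, while MGD2 had 50.4% and the lipase gene 51.9%, above it.

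The level of each gene was given as 1 value, the higher of the means of the low-Pi and the control group, as the authors computed it. The column does not say which group that was, and the values are the authors' means with no SD. The change between low-Pi and control was not analysed here, since the authors' own fold changes and p-values were not used, and the levels speak neither for nor against such a change. The column names no unit. Levels are compared between genes on the reading that they are per length of transcript. TPM and RPKM, both defined in the study's methods, would be so, and this reading was not tested. GDPD1 had a level of 31.6, SQD2-like 7.54, MGD2 5.81 and the diacylglycerol lipase gene 0.975.

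**Figure D1:**
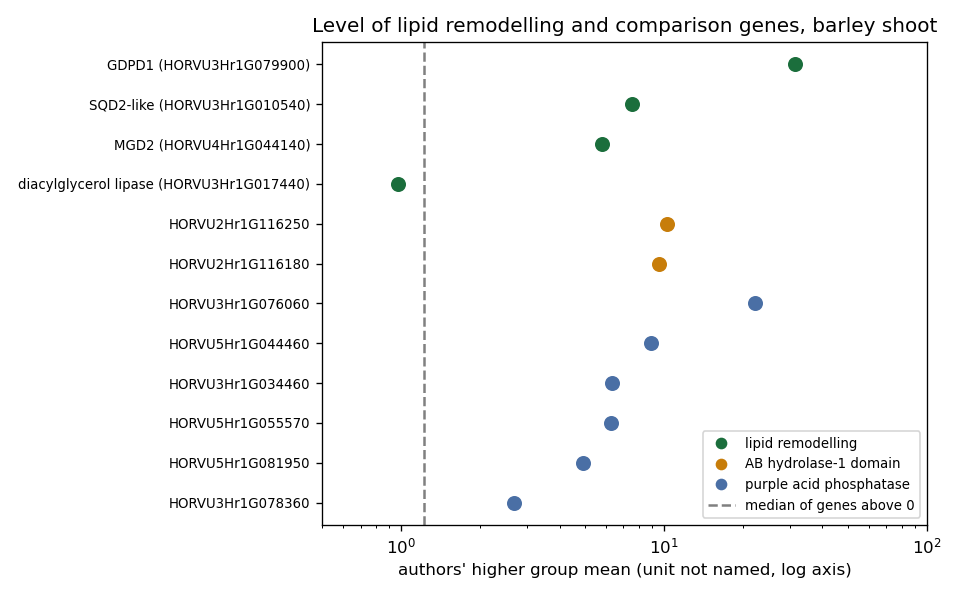
Level of each gene (the authors' higher group mean, unit not named, log axis), 1 point a gene, for the 4 lipid remodelling genes, 2 AB hydrolase-1 domain genes and 6 purple acid phosphatase genes, with the median of all genes above 0 as a dashed line. GDPD1 at 31.6 stood to the right of every other gene shown, and the diacylglycerol lipase gene at 0.975 was the sole gene left of the median of 1.22.

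The phosphodiesterase gene GDPD1 thus led the members and held 68.8% of their summed level of 45.9. Its level was 4.19 times that of SQD2-like and 5.43 times that of MGD2. The genes of the enzymes that make the new lipids lay close together, with SQD2-like at 1.30 times the level of MGD2. With no value per library it is not known whether such a ratio exceeds the spread between pots. The lipase gene, named for an enzyme type that takes a fatty acid from diacylglycerol, was at the low end. GDPD1 was 32.4 times, SQD2-like 7.73 times and MGD2 5.96 times as high as the lipase gene. All of these figures compare higher group means, so the order, share and ratios need not hold within each group.

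Against the 27022 genes with a level above 0, of which the median was 1.22, 3 of 4 members lay above the median. GDPD1 was higher than 93.7% of these genes and ranked 1712 from the top. SQD2-like was higher than 80.0% (rank 5410) and MGD2 higher than 76.1% (rank 6447). The lipase gene was higher than 46.5% (rank 14468), close to the middle of all genes with a level above 0 and just below their median. The members are on a gene list that the study made from these same libraries. The 96 genes of it at hand had a median of 7.04. A place above the median of all genes is therefore no trait of the members alone, and it holds for the higher group mean only.

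**Figure D2:**
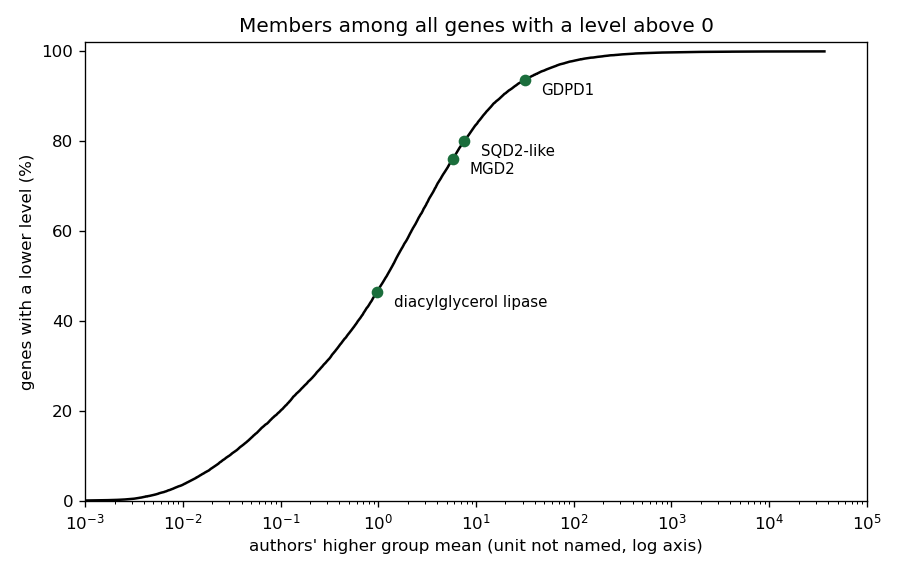
Share of genes with a lower level (%, vertical axis) against the level (the authors' higher group mean, unit not named, log axis), over 27022 genes with a level above 0 as a line and the 4 members as points. GDPD1 sits on the upper shoulder at 93.7%, SQD2-like and MGD2 lie side by side at 80.0% and 76.1%, and the diacylglycerol lipase gene lies near the middle at 46.5%.

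The 96 genes whose upstream sequence was at hand had levels from 0.688 to 685, with a median of 7.04. Among them GDPD1 ranked 17 from the top, SQD2-like 45, MGD2 55 and the lipase gene 91, so the lipase gene was near the low end of this list and no member was near its highest level. The list was made by the study from these same libraries, so a place in it is no independent measure of level.

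The study puts a pair of further genes under lipid metabolism, HORVU2Hr1G116250 and HORVU2Hr1G116180, both for proteins with an AB hydrolase-1 domain, a fold shared by many lipases and esterases. Their levels were 10.2 and 9.55, between GDPD1 and SQD2-like. They lie 161175 bases apart on chromosome 2H, whereas the members lie far from each other. Purple acid phosphatases as a class free phosphate from organic esters, and the set named by the study includes a probable inactive one. The higher mean need not come from the same group in every gene of the set. These 6 genes had levels from 2.69 (HORVU3Hr1G078360) to 22.2 (HORVU3Hr1G076060), with a median of 6.32, close to the members' median of 6.68. GDPD1 lay above all 6 and the lipase gene below all 6. HORVU5Hr1G055570 (6.28) and HORVU3Hr1G034460 (6.36) lay between MGD2 and SQD2-like, with no measure of whether these levels differ beyond their spread.

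Of the members, 3 lay on chromosome 3H, which held 14.7% of the genes with a level above 0, and 1 on 4H. The members are on the study's gene list, whose share on 3H was not computed here. Their places are therefore not read as a trait of lipid genes. SQD2-like (3H, 23187753 to 23191867, minus strand) and the lipase gene (3H, 44431931 to 44442326, plus strand) lay toward the same end of 3H, 3.31% and 6.35% of the way along the listed genes, and 21240063 bases apart. GDPD1 (3H, 585699789 to 585703782, plus strand) lay toward the other end, at 83.7%. MGD2 (4H, 352904030 to 352906956, plus strand) lay near the middle of 4H, at 54.5%. From first to last base, introns included, MGD2 spanned 2927 bases, GDPD1 3994, SQD2-like 4115 and the lipase gene 10396, against a median span of 3422 bases. The lipase gene was longer than 88.6% of the genes with a level above 0.

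The surroundings matter for how far a level belongs to the gene alone, since the strand setting of the read counting is not given in the sources used here. No listed gene overlapped a member. GDPD1 and MGD2 stood alone, with 0 listed genes within 100 kb. The nearest to GDPD1 was HORVU3Hr1G079890 at 187 kb, with a level of 24.5, and the nearest to MGD2 was HORVU4Hr1G044120 at 417 kb, with 0.0411. The lipase gene had 2 listed genes within 100 kb. HORVU3Hr1G017430 (1.77) ended 11872 bases before it, and HORVU3Hr1G017470 (0.0819) began 18879 bases after it.

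SQD2-like had the densest surroundings, with 7 listed genes within 100 kb, and was the third highest of these 8 genes in level. HORVU3Hr1G010530, on the opposite strand, ended 208 bases from the 3′ end of SQD2-like and had a level of 112, the highest of the group. HORVU3Hr1G010550, on the same strand, ended 909 bases before the start of SQD2-like and had a level of 4.30. Whether reads that run past the end of HORVU3Hr1G010530 add to the level of SQD2-like was not tested.

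**Figure D3:**
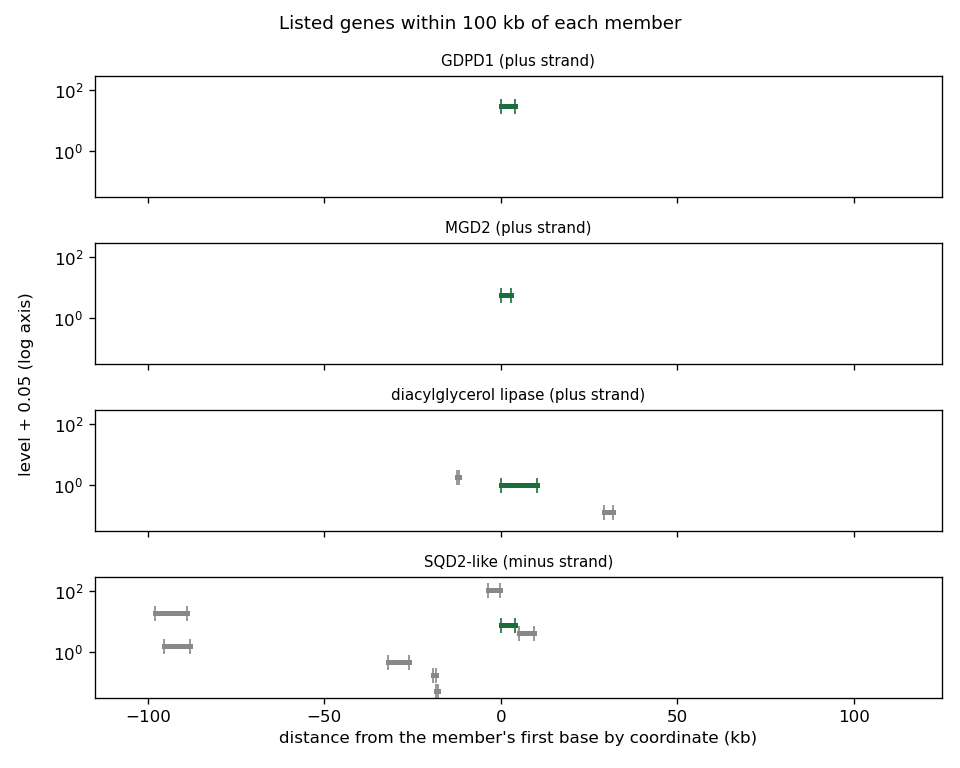
Listed genes within 100 kb of each member, 1 panel a member, drawn from first to last base against the distance from the member's lowest coordinate (kb, horizontal axis) at their level plus 0.05 (log axis), with the member in green and the others in grey. The panels of GDPD1 and MGD2 show the member alone, that of the lipase gene 2 others, and that of SQD2-like 7 others, of which HORVU3Hr1G010530 at 112 abuts the member.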

How the data were processed

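Poly(A) RNA of 3 low-Pi and 3 control shoot samples was turned into libraries with the Lexogen SENSE mRNA-Seq V2 kit from 1500 ng of total RNA and read in pairs of 150 cycles. The authors mapped trimmed reads to IBSC_v2 with the Ensembl Plants Genes 42 annotation in CLC Genomics Workbench (its version is not given in the sources used here). In all, the authors deposited 1 table for the series with a normalised signal, the higher of the 2 group means. Their methods name TPM, but the column names no unit and summed to 589470. Levels were compared between genes as if per length, which both TPM and RPKM would be. The other value columns hold the authors' own comparison (log2 fold change, fold change, p-value, FDR and Bonferroni adjustment) and were not used. With no value per library, depth is unknown, and no SD, interval on a level or test between groups could be had. The nuclear identifiers have no counterpart in the RefSeq table at hand (MorexV3 assembly), and no tissue marker was checked.

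Each level was ranked among the genes with a level above 0. Listed genes within 100 kb and motifs in the first 399 bases of the study's upstream sequences were collected with Python 3.11.15, exact binomial intervals with SciPy 1.17.1 (counting error only) and plots with matplotlib 3.10.9. The functions were checked on made-up input. Other ranking pools, windows, strands and stretches were tried. The genes named are the 4 members, their nearest neighbours, the AB hydrolase-1 domain genes and the purple acid phosphatase genes. The members and these lists were chosen with earlier results of these data known.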

Additional observations from a re-analysis of the deposited data

How the results depend on the processing

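Of 27 alternatives, 5 could not move their value by construction (P1BS on a single strand, the ratio of highest to lowest member without MGD2 or SQD2-like, and the smaller window around GDPD1 and MGD2). Of the other 22, 11 left the value within its binomial interval or, for counts, within 1.5 times. Most of those that moved had to. Adding genes at 0 raises each share, cutting genes below 1 lowers it, and leaving out the highest or lowest member shrinks the ratio. The tally is therefore no measure of how stable the results are. Ranked over all 39841 listed genes, with those at 0 included, GDPD1 was higher than 95.7%, SQD2-like than 86.4%, MGD2 than 83.8% and the lipase gene than 63.7%. Ranked over the 14357 genes whose level reached 1, GDPD1 was higher than 88.1%, SQD2-like than 62.3% and MGD2 than 55.1%, and the lipase gene fell below the limit, so it has no value. Both shifts follow from the pool of genes, which cannot change the order of the members. The ratio of the highest to the lowest member was 7.73 without GDPD1 and 5.43 without the lipase gene, against 32.4. A window of 200 kb gave 3 listed genes around GDPD1 and 6 around the lipase gene. Leaving out a library could not be done, because the table holds no value per library. No paired analysis was possible because the column used carries no replicate. The depth behind the level of 0.975 of the lipase gene is not known.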
